A study of Triticum aestivum with 12 samples.

Results

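The comparison is of blue (B) with white (W) light in wheat leaves that received no putrescine (PUT): BC, the B control, against WC, the W control. The unit is the locus, a section of the genome covered by reads of methylated DNA. Of 11509120 loci, 322974 (2.81%) had a count above 10 in at least 2 BC or 2 WC libraries, and these are the members described here. Of them, 94008 reached this level in BC only, 176626 in WC only and 52340 in both groups. At the edge of the rule, 70357 loci had a second-highest count of 11 in BC or WC and were kept, and 92260 had 10 in the higher of the groups and were not.

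The plants were winter wheat, variety Mv Beres, grown in nutrient solution at 250 µmol m-2 s-1 with 16 h of light and 8 h of darkness, at 22 °C by day and 20 °C by night. The share of blue was 82.14% in B light against 32.32% in W light. Green made up 1% of B and 45.71% of W, red 16.7% and 20.71%, and far-red 0.17% and 1.25%. B light therefore also had less green, red and far-red, and the colours cannot be told apart. WC and BC plants stayed without treatment while WP and BP plants had 0.5 mM PUT in the solution for 7 days. Each of the 4 groups had 3 libraries, called biological repetitions by the study. Fragments with 5-methylcytosine were captured with an antibody and sequenced (MeDIP-seq), from DNA of whole leaves, so that cell types and organelles were mixed in each sample. BP against WP, which shares no library with BC against WC, was used as a separate contrast of the same lights.

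In plants, 5-methylcytosine occurs at CG, CHG and CHH sites. It is dense over transposons and other repeats, where it keeps them silent, and in CG sites within gene bodies. Blue light is sensed by cryptochromes and phototropins, which steer seedling growth, chloroplast movement and the expression of photosynthesis genes. Bread wheat carries the subgenomes A, B and D, each with 7 chromosomes, and most of its DNA is repetitive. Its gene-rich, recombining DNA lies toward the chromosome ends. Copies of plastid DNA are also inserted in the nuclear chromosomes of plants, so that some nuclear loci carry genes of the plastid genome.

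The samples did not fall cleanly into their groups. The total count was 19973576 to 20489813 reads in BC and 15812048 to 18824815 in WC, and WC replicate 1 had the lowest total of all. Its reads were stacked on few loci, 1563154 with a mean of 10.1 reads each, against 2683833 and 3062668 loci with 7.01 and 6.04 reads in the other WC libraries. In the distribution of reads along the chromosomes, over genes and over locus lengths, however, WC replicate 1 was close to the BC libraries. The share of the count in loci overlapping a protein-coding gene was 3.39%, 3.29% and 3.40% in BC replicates 1, 2 and 3 and 3.28% in WC replicate 1. In the 8 other libraries, BP and WP included, it was 1.73% to 2.38%. In Pearson correlations between libraries, WC replicate 1 was not close to BC. Its r was -0.0420, -0.105 and -0.0738 with BC replicates 1, 2 and 3. With WC replicates 2 and 3 it was 0.0722 and 0.0779. Between WC replicates 2 and 3 r was 0.236, and among the BC libraries 0.232 to 0.279. Whether WC replicate 1 holds what its label says, or differs in DNA quality, was not tested, and every value of BC against WC depends on it. Results that rest on it are therefore given with and without it. BC replicate 2 stood out at a few repeated loci and WC replicate 2 on chromosome 5A, and both are described where they bear.

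B light was accompanied by a broader and thinner coverage. A count was found at 4482038, 3825307 and 4247629 loci in BC replicates 1, 2 and 3, and at 1563154, 2683833 and 3062668 loci in WC. Every BC library covered more loci than every WC library, with means of 4184990 ± 332816 and 2436550 ± 779741 (SD, n = 3 each). The two-sided exact permutation test gave p = 0.1, the smallest that 3 libraries against 3 allow. Adjusted over the 110 library-level tests, this p was 0.216, and none of these tests can pass a threshold of 0.05. Thinned to the lowest total of 15812048 reads, BC libraries still covered 3693628 to 4272806 loci and WC libraries 1563154 to 3002352. A covered locus held a mean of 4.47, 5.22 and 4.82 reads in BC. Conversely, loci with more than 10 reads were fewer in BC (300737 to 358420) than in WC (412995 to 653359). BP and WP overlapped in the number of covered loci, with 3211670 to 4324516 and 2459521 to 3332499.

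**Figure D1:**
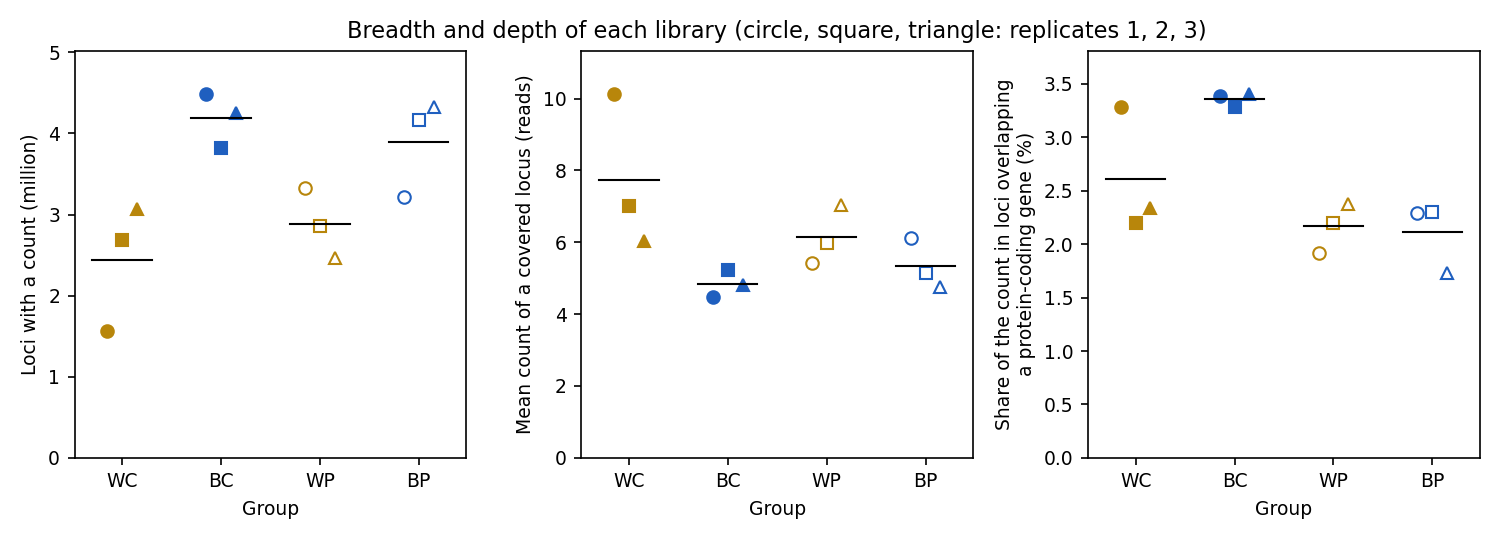
Loci with a count (in units of 1e6), mean read count of a covered locus and share of the count in loci that overlap a protein-coding gene (%), by group. Symbols are libraries (circle, square and triangle for replicates 1, 2 and 3), filled without PUT and open with PUT, blue for B and ochre for W light, and lines are means of 3. WC replicate 1 is lowest in covered loci, highest in mean count, and at 3.28% level with BC in the share over genes, where the BP libraries are not.

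Along the chromosomes, BC reads lay more at the ends. The outermost 20% at either end held 34.8% of the count in each BC library and 34.6%, 32.8% and 32.8% in WC replicates 1, 2 and 3. The groups did not overlap, but WC replicate 1 differed from BC by far less than from its own group. In the last of 10 equal parts of the chromosome length, BC had 7.78%, 7.80% and 7.81% and WC 7.66%, 6.82% and 6.83%. The middle showed the reverse, with 11.1% of the count in part 4 in every BC library and 11.2%, 11.6% and 11.6% in WC. With PUT, no such difference was seen, since the outermost 20% held 32.04% to 33.2% in BP and 32.5% to 33.1% in WP. The difference between these contrasts was not tested.

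**Figure D2:**
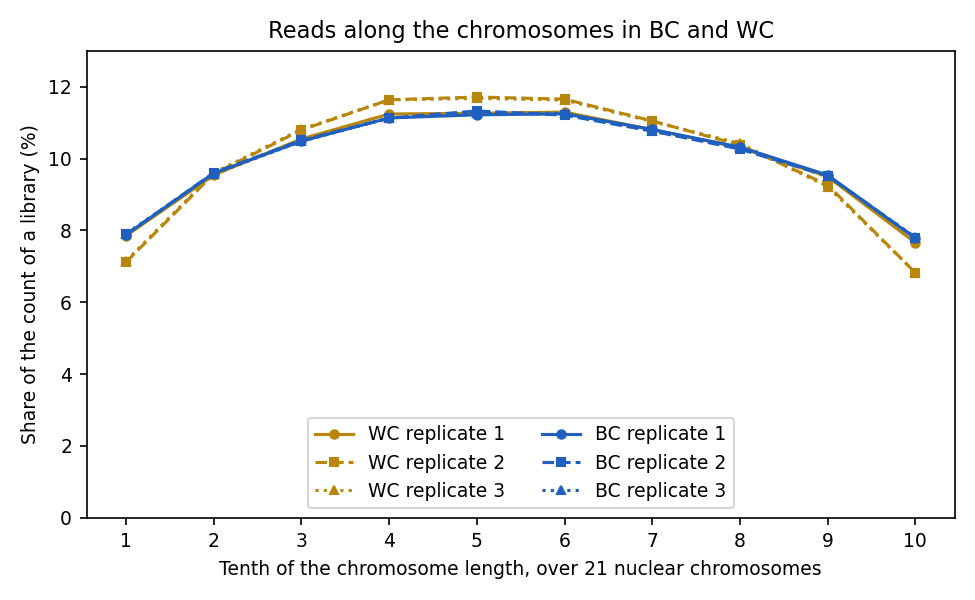
Share of the count of each library (%) in 10 equal parts of the chromosome length, summed over the 21 nuclear chromosomes, for the BC (blue) and WC (ochre) libraries. WC replicates 2 and 3 are lower than the rest in the first and last parts and higher in the middle, and WC replicate 1 runs with BC.

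The subgenomes also shared the reads differently. Subgenome A held 34.77%, 35.47% and 34.996% of the count in BC and 34.6%, 34.2% and 34.1% in WC. Subgenome D went the other way, with 30.28%, 30.01% and 30.11% in BC and 30.4%, 31.1% and 31.2% in WC. The groups did not overlap in A or D, with p = 0.1 in each exact permutation test (adjusted p = 0.216), while B differed by only 0.0449 percentage points (exact permutation p = 0.9). Of the 21 chromosomes, 11 had shares that did not overlap between BC and WC. In BP and WP the share of D did not overlap either (30.3% to 30.8% against 31.1% to 31.5%), and that of A did (34.5% to 36.1% against 34.3% to 34.6%).

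Short loci took more of the BC reads. Loci under 500 bp held 16.5%, 17.1% and 17.1% of the count in BC and 16.1%, 11.6% and 11.1% in WC, and were 8.91% to 13.3% in the libraries with PUT. Among loci that pass the filter on low counts this turned around, with means of 0.112% in BC and 0.176% in WC. Loci of 2000 to under 3000 bp held 13.6%, 12.8% and 13.2% in BC against 13.9%, 15.7% and 16.2% in WC. Loci overlapping genes of long noncoding RNAs (lncRNAs) followed the protein-coding genes, with 0.553% to 0.570% in BC and 0.533%, 0.401% and 0.418% in WC. In these measures WC replicate 1 again lay beside BC. Without that library, the mean difference grew from 3.96 to 5.53 percentage points for loci under 500 bp and from 1.42 to 2.01 for the chromosome ends.

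Chromosome 5A held the largest deviation of a chromosome in a library without PUT. WC replicate 2 had 4.68% of its count on 5A, 0.935 times the median of the 12 libraries. The other 125 values of the 6 libraries on the 21 chromosomes lay between 0.957 and 1.03 times the median. The shortfall lay mainly in the first part of 5A. Over the first 240 Mb, WC replicate 2 had 0.848 times the median share, and the BC and other WC libraries had 0.987 to 1.01. Beyond 260 Mb it had 0.983 times the median, next to 0.985 in WC replicate 3. This stretch was singled out after the values were seen, and its cause was not tested.

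**Figure D3:**
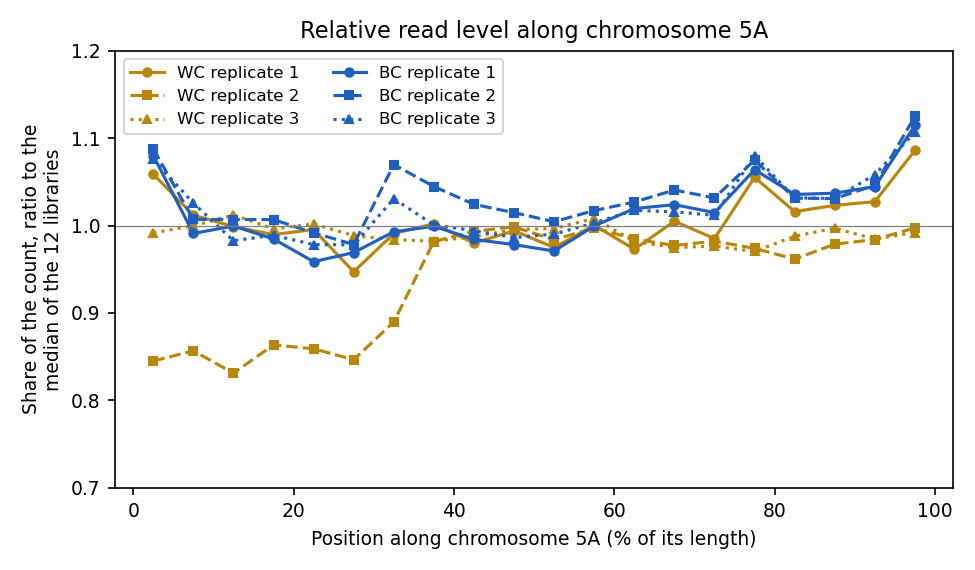
Share of the count in windows of 5% of the length of chromosome 5A, as the ratio to the median of the 12 libraries, for the BC (blue) and WC (ochre) libraries. WC replicate 2 runs near 0.85 over the first part of the chromosome and near 1 beyond it.

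At single loci, calls went mainly upward in B light. A locus was called where the unadjusted p of edgeR's quasi-likelihood test was below 0.01 and the log2 fold change of BC over WC beyond 1.5, the thresholds of the study. Of the members, 7870 (2.44%) were called higher in BC and 796 (0.246%) lower. Among all 539307 loci tested, those kept through any group, 2.36% were called higher and 0.176% lower, so the shares of the members are near this background. The median log2 fold change of the members was -0.08, and 47.6% were above 0. The balance depended on the test and the scaling. With edgeR's likelihood ratio test, the kind the study used, 11657 members were called higher and 3549 lower. With the library size over every locus, 2866 were called higher and 4339 lower, and the median log2 fold change of the members moved to -0.76. Without WC replicate 1 there were 5610 higher and 1185 lower calls, and 3579 of the higher calls were shared with those above. After Benjamini-Hochberg adjustment over all loci tested, 72 members were higher and 1 was lower at an adjusted p below 0.05. Over all loci tested, 0.0139% reached this level. This number depended on the tool and scaling, with 1111 members in the likelihood ratio test, 3263 in DESeq2, 33 with library sizes over the tested loci, 14 with those over every locus and 10 with the 6 libraries alone.

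Most calls set a few reads against none. At 5200 of the 7870 loci called higher (66.1%), no WC library had a read, and at 247 every WC library had some. The median over these loci of the mean BC count was 12 reads. Likewise, 541 of the 796 loci called lower (68.0%) had no read in BC, with a median of the mean WC count of 15.7. Of the loci called higher, 7722 had entered the members through BC only, and of those called lower, 793 through WC only, so the rule itself favoured these directions. In 6202 loci called higher, every BC library was above every WC library, and in 592 called lower every BC library was below. Among all loci tested, 5.69% had every BC library above every WC library and 7.55% every BC library below, and among the members 5.99% and 11.3%. These comparisons of libraries are of raw reads, not scaled for library size. Over the tested loci the BC libraries summed to 3889095 to 4296938 reads and the WC libraries to 4088423 to 5458357. Raw reads thus lean toward BC below, and these shares are not comparable with the scaled calls.

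By chromosome, the share of members called higher was largest in A and smallest in D. It was 2.77% in subgenome A (2961 of 106806), 2.40% in B (2642 of 109972) and 2.13% in D (2266 of 106192). The A chromosomes ranged from 2.56% on 4A to 3.203% on 5A, the B chromosomes from 2.22% on 6B to 2.64% on 2B, and the D chromosomes from 2.05% on 7D to 2.29% on 4D. In 6 of the 7 homoeologous groups the order was A over B over D, in all 7 without WC replicate 1, and in 5 without WC replicate 2 or BC replicate 2 or with another scaling. The median log2 fold change followed this order, with -0.03 in A, -0.07 in B and -0.13 in D. With the library size over every locus the order of the subgenomes was kept, at 1.02%, 0.865% and 0.776%. Calls lower in BC were 0.237%, 0.233% and 0.270% of the members in A, B and D. Chromosome 5A stayed the highest of the A chromosomes without WC replicate 2 (3.34%). Its first 240 Mb had 3.32% called higher with this library and 3.23% without it, and the stretch beyond 260 Mb had 3.11% and 3.32%. Nearly all loci called higher had entered the members through BC only, and this entry is not split by chromosome here. These shares thus cannot be told apart from the shares of loci that entered this way. Loci on a chromosome are not replicates, and these shares carry no test.

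**Figure D4:**
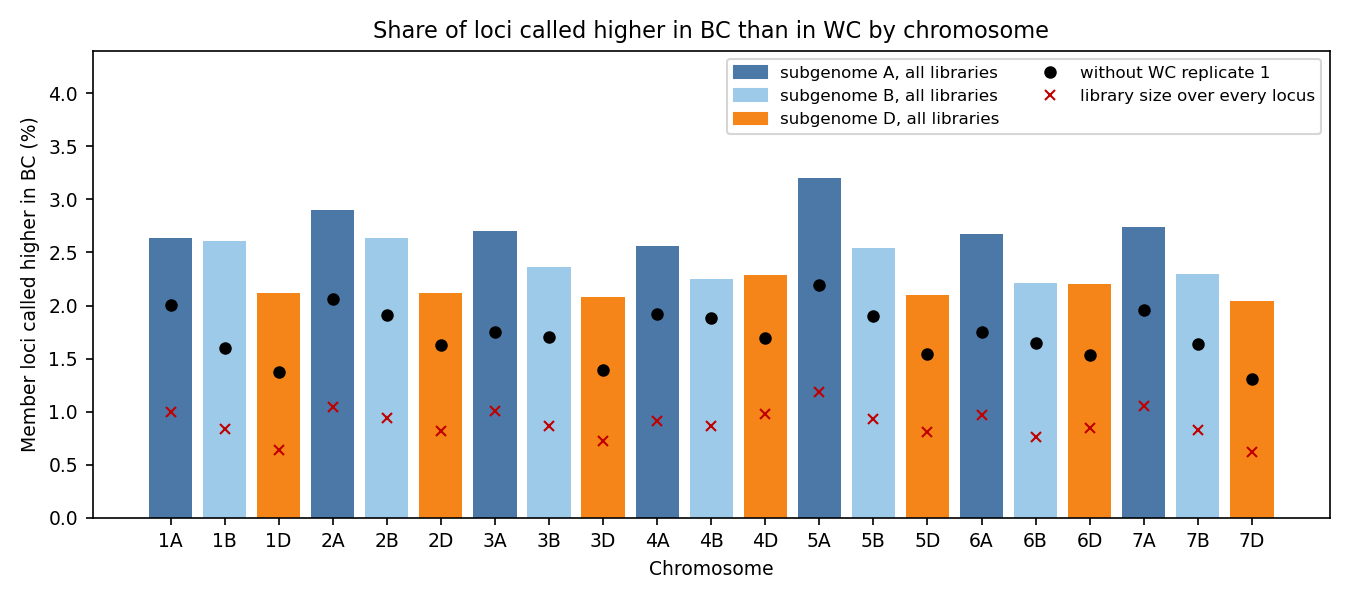
Share of member loci called higher in BC than in WC (%) on each nuclear chromosome. Bars use all libraries and are coloured by subgenome, dots leave out WC replicate 1, and crosses use the library size over every locus. The A chromosomes stand between 2.56% and 3.203%, the D chromosomes between 2.05% and 2.29%.

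Along the chromosome length, the share called higher was 2.78% in the first of the 10 parts and 3.06% in the last, and 2.27% to 2.55% in between. The outermost 20% at either end had 2.65% (2455 of 92590) and the interior 2.35% (5414 of 230380). This difference was 1.82% against 1.702% without WC replicate 1. Without WC replicate 2 it turned around, with 2.56% at the ends and 2.73% in the interior. The position of the calls thus did not hold without that library, and values without WC replicate 3 are not given here. By length, 3.83% of the members of 1000 to under 2000 bp were called higher, 2.40% of those of 2000 to under 3000 bp, 1.45% of those of 3000 to under 5000 bp and 0.942% of those of 5000 bp or more. Calls lower in BC were 0.478% in the first of these classes and 0.0761% in the last. The median log2 fold change ranged from -0.62 at 1000 to under 2000 bp to 0.20 at 3000 to under 5000 bp. Without WC replicate 1 the class with the largest share was 2000 to under 3000 bp (2.29%), with 1.86% at 1000 to under 2000 bp, and likewise without WC replicate 2 (3.57% and 2.43%). The entry of loci through BC only is not split by position or length here either, so the same limit holds.

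The loci with the smallest p were of different kinds. In what follows, counts are raw reads in replicates 1, 2 and 3 of a group, and fold ratios are of means scaled for library size. A first kind was high in BC replicate 2 alone. At 5B:144109266-144110471 (1206 bp, no annotated gene), BC had 549, 4066 and 617 reads and WC 587, 659 and 619, so that BC replicates 1 and 3 lay inside or just below the WC range. BP replicate 3 also stood apart, with 452, 519 and 7717 reads in BP and 983, 664 and 471 in WP. The log2 fold change of 2.02 ± 0.12 (SE) had an adjusted p of 2.35e-61 in edgeR and was 0.39 without BC replicate 2 (adjusted p = 0.635). At the first listed 96 bp of chromosome 4A, 4A:1-96, where a chromosome end lies, BC had 79, 730 and 165 reads, WC 53, 184 and 86, BP 83, 978 and 3077 and WP 86, 184 and 125. Its log2 fold change of 2.109 ± 0.22 was 0.65 without BC replicate 2. The locus 5A:346441270-346442186 (BC 59, 566 and 149, WC 33, 143 and 78) behaved alike, from 2.12 ± 0.24 to 0.76. Because the fitted spread was the same for all loci of a level, the spread between the libraries of a locus did not enter its p. Of the 73 members with an adjusted p below 0.05, 15 had more than 3 times as many reads in BC replicate 2 as in the mean of the other BC libraries, and at 12 of these BP replicate 3 stood out of BP in the same way. Of the 73, 13 had an adjusted p below 0.05 without BC replicate 2, 27 without WC replicate 1, and 19 without WC replicate 2 or 3.

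The 2 nuclear members with the highest mean count lay on 4B. At 4B:592421107-592422674 BC had 8176, 15541 and 8557 reads and WC 6318, 5868 and 4801, a ratio of 2.74 (log2 fold change 1.46 ± 0.04, adjusted p = 8.51e-236 in edgeR). At 4B:592606307-592608541 BC had 4097, 7250 and 4647 and WC 3475, 3008 and 2516, a ratio of 2.57. In raw reads, all BC libraries were above all WC libraries at both loci. The log2 fold changes stayed at 1.06 and 1.04 without BC replicate 2. With the library size over every locus they were lower, at 0.72 and 0.62 (adjusted p = 4.63e-47 and 2.49e-13 in edgeR). Both loci are under the threshold of 1.5 and thus not called. Other loci with high counts did not go this way. At 1B:551328203-551330186 BC had 1181, 697 and 967 reads and WC 1003, 1373 and 1804, with a log2 fold change of -0.06 ± 0.14. With the library size over every locus it was -0.73 (adjusted p = 0.0148 in edgeR). At 6B:117707997-117708535 BC had 1321, 633 and 1018 and WC 1128, 2194 and 2682. This was the only member lower in BC at an adjusted p below 0.05 (0.044 in edgeR), by a log2 fold change of -0.52 ± 0.12, and the groups overlapped. With the library size over every locus its log2 fold change was -1.18 (adjusted p = 4.83e-19 in edgeR).

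A second kind was higher in all BC libraries by a similar factor. The clearest was 5D:567840431-567842405 (1975 bp, no annotated gene), with 681, 929 and 683 reads in BC and 241, 137 and 202 in WC. The scaled ratio was 5.70 (log2 fold change 2.51 ± 0.26, adjusted p = 5.14e-17 in edgeR). With PUT, BP had 437, 408 and 232 reads and WP 110, 196 and 175, again without overlap, at a log2 fold change of 1.28 (adjusted p = 0.00645). Its neighbour 5D:567842802-567844604 had 215, 273 and 177 reads in BC and 46, 24 and 21 in WC, a ratio of 10.7 (log2 fold change 3.41 ± 0.50, adjusted p = 5.44e-07). Neither depended on BC replicate 2 or WC replicate 1, with log2 fold changes of 2.31 to 3.75 when either was left out. Long loci were also among this kind. At 4B:20213954-20224251 (10298 bp), BC had 1222, 1714 and 1492 reads and WC 993, 855 and 715, a ratio of 2.49. At 2A:14221247-14231534 (10288 bp), BC had 650, 685 and 555 and WC 344, 375 and 343, a ratio of 2.55, and BP against WP had a log2 fold change of 1.10 (adjusted p = 0.0106). The counts of a group lay close together at these long loci. With the library size over every locus their log2 fold changes were 0.58 and 0.64 (adjusted p = 0.4997 for both).

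Of the 7 annotated gene classes compared by locus, tRNA genes had the largest share of loci called higher. Of 71 members overlapping a tRNA gene, 14 (19.7%) were called higher and 0 lower, where all members had 2.44% called higher. Of the 71, 24 had become members through BC only, with 4 calls, 24 through WC only, with 0, and 23 through both groups, with 10. Of all members that passed in both groups, 0.283% were called higher. Of the tRNA loci, 51 had a log2 fold change above 0, and their median was 0.83 where that of all members was -0.08. With the library size over every locus only 1 was called, but the median of 0.09 again lay above that of all members, -0.76. Between 8 and 13 were called when BC replicate 2 or any WC library was left out. For comparison, members overlapping a protein-coding gene had 3.25% called higher and a median of 0.02, and those overlapping a pseudogene 2.58% and -0.07. Loci of other RNA genes were few, with 2 of 30 called higher for snoRNAs, 2 of 55 for rRNAs and 1 of 16 for snRNAs. At 1B:89315249-89317886, which holds a gene for the leucine tRNA TRNAL-UAG at 1B:89316408-89316487, BC had 724, 616 and 658 reads and WC 367, 107 and 146. The ratio was 4.72 (log2 fold change 2.24 ± 0.28, adjusted p = 4.49e-11 in edgeR). At 2D:652664730-652667403, with a gene for the cysteine tRNA TRNAC-GCA, BC had 581, 673 and 566 and WC 256, 128 and 171, a ratio of 4.75 (adjusted p = 1.17e-10). The next locus, 2D:652667741-652670872, with the threonine tRNA TRNAT-GGU, had 371, 449 and 382 reads in BC and 238, 110 and 123 in WC. WC replicate 1 was the highest WC library at all of these and still below every BC library. With the library size over every locus, the first 2 had log2 fold changes of 1.43 and 1.49 (adjusted p = 0.0235 and 0.0182), and the third 1.11 (adjusted p = 0.4997). At 3B:213063160-213064239, with TRNAT-UGU, BC had 129, 201 and 152 reads and WC 88, 8 and 39, a ratio of 5.26 (adjusted p = 0.0326, and 0.4997 with the library size over every locus). Since tRNA genes have near-identical copies at many places, reads may have been shared out among copies, and the place of a single count is uncertain.

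The tRNA loci called higher were of species that the plastid genome of land plants also encodes. This grouping was made after the values were seen and carries no test. Of the 71 loci, 57 held such a species, by its amino acid and anticodon, and all 14 called loci were among them (24.6%). The 14 others, such as TRNAA-AGC and TRNAV-CAC, had 0 called and a median log2 fold change of -0.17, against 1.302 in the 57. Summed over the 57 loci, BC had 161, 187 and 159 reads per 1e6 and WC 130, 55.7 and 70.9. The 14 other loci had 6.04, 5.76 and 4.93 reads per 1e6 in BC and 13.03, 9.40 and 6.001 in WC, so that the order of the groups was not the same. WC replicate 1 lay between BC and the other WC libraries in the first sum. With PUT the first sum was 110, 100 and 58.3 in BP and 45.6, 59.2 and 76.5 in WP, and overlapped.

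Protein-coding genes named for plastid products were also higher in BC by sign. Product names were at hand for 1007 genes only, those in the study's tables, which were chosen on these samples. Among them, 9 genes whose product the plastid genome encodes had 12 member loci, of which 6 were called higher, 0 lower, and 12 had a log2 fold change above 0. Of the 6 called, 3 are loci that also hold a tRNA gene counted above. The 6 calls became 4 without BC replicate 2 or WC replicate 3, 3 without WC replicate 2, and 1 with the library size over every locus. LOC123067330, named for the D2 protein of the photosystem II reaction centre, shared the locus 1A:556463121-556465346 with TRNAS-GCU. BC had 176, 305 and 177 reads there and WC 116, 39 and 76, a ratio of 4.15 (log2 fold change 2.05 ± 0.46, adjusted p = 0.0507 in edgeR). A second D2 gene, LOC123045574, lay with another TRNAS-GCU at 2B:483050966-483054224, with 88, 123 and 96 reads in BC and 73, 22 and 40 in WC. LOC123123368, named for the beta'' subunit of the plastid RNA polymerase, had 243, 290 and 266 reads in BC at 5D:515689767-515691429 and 258, 33 and 62 in WC, where WC replicate 1 was within BC. LOC123123054, named for maturase K, a splicing factor of plastid introns, had 62 to 106 reads in BC libraries at 5D:486595207-486596696 and 37, 6 and 15 in WC. Summed over the 12 loci, BC had 46.2, 58.2 and 42.9 reads per 1e6 and WC 39.5, 8.82 and 15.6. No plastid sequence is among the 22 sequences of the table, and the origin of these reads was not tested.

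**Figure D5:**
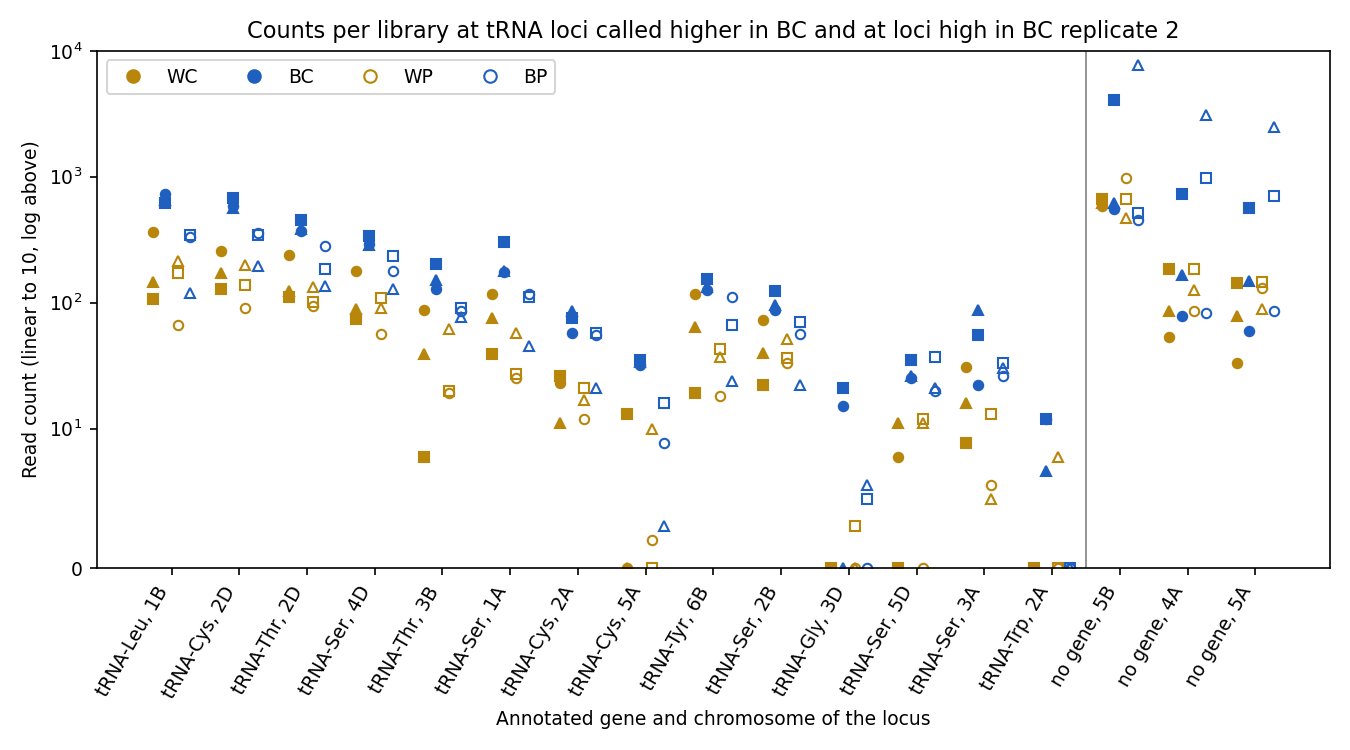
Read count per library at the 14 tRNA loci called higher in BC (left of the line, ordered by p) and at 3 loci that are high in BC replicate 2 (right). The axis is linear to 10 and logarithmic above. Filled symbols are without PUT and open ones with PUT, blue for B and ochre for W, with circle, square and triangle for replicates 1, 2 and 3. At 12 of the 14 tRNA loci every BC library lies above every WC library, the loci on 3D and 3A being the exceptions, and at the loci on the right BC replicate 2 and BP replicate 3 lie highest in their groups.

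The mitochondrion showed a similar order at small counts. Its 36 loci held 277, 241 and 237 reads in BC and 164, 96 and 104 in WC, without overlap, and 91, 131 and 151 in BP against 76, 57 and 70 in WP. Of its 4 members, MT:348937-354014 was called higher, with 111, 117 and 95 reads in BC and 73, 41 and 43 in WC (log2 fold change 1.57 ± 0.57, adjusted p = 0.357 in edgeR). In DNA of whole leaves, more copies of a sequence and more methylation per copy cannot be told apart.

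Calls also fell on other genes. At least 1 bp of a called locus lay in 389 genes for calls higher and 30 for calls lower, of 9838 genes with a member locus (3.95% and 0.305%). Of 6330 protein-coding genes 244 and 22 had such calls, of 1448 lncRNA genes 53 and 1, and of 1764 pseudogenes 60 and 7. Among the small classes, 6 of 49 snoRNA genes, 6 of 118 rRNA genes and 4 of 31 transcribed pseudogenes had a locus called higher and 0 one called lower. Several of these snoRNA and rRNA genes shared a called locus, so the genes are not separate results. LOC123180887 at 1D:183190548-183192693 had 430, 544 and 289 reads in BC and 257, 50 and 97 in WC, a ratio of 4.61 (log2 fold change 2.20 ± 0.34, adjusted p = 4.18e-06 in edgeR). The adjusted p was 0.0711 without WC replicate 2, and with the library size over every locus the log2 fold change was 1.38 (adjusted p = 0.4997). LOC123097283 and LOC123097282 shared 4D:207321391-207323504 with the serine tRNA TRNAS-UGA, with 290, 340 and 288 reads in BC and 177, 74 and 89 in WC, a ratio of 3.94 (adjusted p = 0.00228, and 0.212 without WC replicate 2). BP (177, 236 and 129) and WP (56, 108 and 90) did not overlap there either. LOC123127673, named for the RSZ23 splicing factor of the serine/arginine-rich family, was met by the end of 6A:407960815-407964551. This locus had 9, 40 and 27 reads in BC and none in WC, where a floor of 3 reads over the WC group makes BC at least 36.5-fold higher (adjusted p = 0.0131, and 0.0138 to 0.309 when 1 library was left out). BP had 14, 11 and 23 reads and WP 9, 12 and 3, so that the locus was not empty under W light with PUT. Intergenic loci of this kind were common, and 33 of the 73 members with an adjusted p below 0.05 had no read in WC. An example is 2A:492071198-492075641, with 20, 25 and 16 reads in BC, none in WC, and 9, 12 and 28 in WP.

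With this scaling fewer loci were called lower in B light, and many of them were empty in BC. At 5B:358210589-358213900 (3312 bp, no annotated gene), BC had no reads and WC 21, 29 and 29, at least 18.5-fold lower against the same floor (adjusted p = 0.0744 in edgeR). In the plants with PUT the locus was covered under both lights, with 17, 30 and 4 reads in BP and 9, 21 and 17 in WP. Also empty in BC were 7D:400495902-400499480 (WC 0, 30 and 39), 5D:49675728-49679658 (12, 26 and 29) and 4B:509861299-509864758 (43, 8 and 12), with adjusted p between 0.116 and 0.168. None of these passed adjustment, but with the library size over every locus 5B:358210589-358213900 did (adjusted p = 0.0341). LOC123140149 held the gene locus with the smallest p, 6B:730346275-730346651, with 12, 22 and 35 reads in BC and 220, 118 and 136 in WC, 4.75-fold lower (log2 fold change -2.24 ± 0.58, adjusted p = 0.164). Its adjusted p was 0.0424 with the library size over the tested loci and 0.00601 with that over every locus. At this short locus of 377 bp the reads with PUT were 36, 2 and 12 in BP and 247, 28 and 10 in WP, with WP replicate 1 far above the rest. LOC123090630, named for serine/arginine repetitive matrix protein 1, an mRNA splicing coactivator, had 2, 6 and 6 reads in BC at the 41 bp of 4B:17137693-17137733 and 43, 31 and 60 in WC. With PUT, BP had 10, 3 and 5 reads there and WP 84, 8 and 6, again with WP replicate 1 far above the rest. LOC123119592 (5D:82433836-82436429) had 5, 0 and 0 reads in BC and 23, 21 and 49 in WC. Of the remaining genes of this direction, LOC123061526 and LOC123080348 had no read in BC, with 30, 13 and 10 and 10, 19 and 16 in WC. LOC123144490, the pseudogene LOC123171088 and LOC123045037 had 0 to 13 reads in BC libraries and 8 to 75 in WC. From LOC123090630 on, the adjusted p of these genes was 0.269 to 0.335 in edgeR. Members with reads in all 6 libraries included 7D:209066991-209072167, with 2, 5 and 1 reads in BC and 21, 60 and 42 in WC (log2 fold change -3.39 ± 0.96, adjusted p = 0.227).

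The light contrast with PUT went the same way at most loci called without it. Of the 7870 loci called higher in BC, 6253 (79.5%) were higher in BP than in WP, where 53.0% of all members were. Their median log2 fold change was 6.59 in BC against WC and 1.05 in BP against WP. In BP against WP, 252 (3.202%) were called higher, where 1.01% of all members and 1.39% of all loci tested were. Of the 796 loci called lower in BC, 516 (64.8%) were lower in BP than in WP, where 46.6% of all members were. Only 2 of them (0.251%) were called lower in BP, against 0.118% of the members and 0.144% of all loci tested. Nearly all called loci had entered the members through the group in which they were higher. Of all members, 94008 entered through BC only and 176626 through WC only. All members are thus not a matched background, and the rate by sign among loci of the same entry was not taken. Of the 72 loci higher in BC at an adjusted p below 0.05, 69 were higher in BP by sign and 17 were called. Among these 17 were 5B:144109266-144110471, 4A:1-96 and 5A:346441270-346442186. There BP replicate 3 had 7717, 3077 and 2498 reads, the most of the BP libraries, and this spread did not enter the p. The test of the difference between the contrasts passed an adjusted p of 0.05 at 2 members, 4B:592421107-592422674 and 4A:1-96, and at both BP replicate 3 had the most reads of the 12 libraries.

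Genes of light signalling, photosynthesis, methylation and polyamine metabolism were reached only in part. With loci within 3000 bp of a gene counted, 11 of 14 listed genes had a member locus. The list too came from the study's named genes and supports nothing on its own. Of all 27822 genes with a member locus at this distance, 3.42% had one called higher and 0.327% one called lower. Of the light signalling genes, 2 of 3 had a locus called higher, with adjusted p of 0.331 and 0.382 in edgeR. At 1B:256406668-256409084, near LOC123118249 for a PHYTOCHROME-DEPENDENT LATE-FLOWERING-like protein, BC had 14, 11 and 17 reads and WC 0, 0 and 2. With PUT, BP had 9, 15 and 7 reads and WP 8, 19 and 0. At 6D:116397194-116399975 in LOC123141300, named for FAR-RED ELONGATED HYPOCOTYL 3, a transcription factor of phytochrome A signalling in Arabidopsis, BC had 6, 21 and 16 and WC 0, 2 and 2. With PUT the sign was the other way, with 16, 5 and 5 reads in BP and 18, 11 and 11 in WP. A second locus near the same gene, 6D:116403755-116405813, went the other way (BC 1, 0 and 0, WC 0, 14 and 18) and was not called. Near a gene for the methyltransferase DRM2, LOC123103996, which methylates new sites in Arabidopsis, neither of the loci was called. In the flavonoid list 1 gene of 3 was called, the glucosyltransferase LOC123051036, with 12, 0 and 11 reads in BC at 2D:10031118-10033327 and none in WC. Its adjusted p was 0.360 in edgeR, and with PUT BP had 7, 4 and 5 reads and WP 13, 7 and 8. No listed gene was called lower.

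The 9 genes the study chose for qRT-PCR held few reads. A tested locus overlapped 3 of them. TaHSP70, for a stromal chaperone of the chloroplast, had 9, 21 and 6 reads in BC and 15, 0 and 12 in WC at 5A:175748756-175750683 (log2 fold change 0.95 ± 1.28, adjusted p = 0.983 in edgeR). The loci at TaRsmI (BC 4, 0 and 14, WC none) and TaACO1 (BC 5, 5 and 6, WC none) were not members. The first met the call rule (adjusted p = 0.312 in edgeR) with reads in only 2 BC libraries, and the second did not (adjusted p = 0.398). Over the whole gene, TaLHC7, for a chlorophyll a-b binding protein, had 4, 0 and 4 reads in BC and none in WC, which is near the floor of 3 reads. TaCRK6, for a receptor-like kinase, had 3, 6 and 7 reads in BC and none in WC. TaCAS, for a calcium sensing receptor, had 15, 6 and 8 reads in BC and 0, 16 and 0 in WC. TaRPSa2, for a ribosomal protein, had 0, 10 and 2 in BC and none in WC. None of these genes overlapped a tested locus. The study reports TaCRK6, TaHSP70 and TaCAS as down-methylated in BC against WC, and TaRsmI, TaACO1 and TaRPSa2 as up-methylated. It extended genes by 3000 bp toward promoters, which was not done here, so the measures are unlike.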

How the data were processed

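DNA of leaves was enriched for 5-methylcytosine with an antibody and sequenced in 12 libraries. Per the labels, the authors used FastQC, Trim Galore, cutadapt, BWA and bedtools, with low-quality bases and short reads trimmed and the rest aligned to the IWGSC CS RefSeq v2.1 assembly. Versions of these tools and the settings of the alignment are not given in the sources used here. The deposited table holds raw read counts, not normalized, of each library at 11509120 loci on 21 nuclear chromosomes and the mitochondrion. The sequencing input controls were not used here, so enrichment over input is not measured, and PCR duplicates may be counted. Depth was 15812048 to 21355140 reads a library. Floors cover counting error only. The SEs also hold the spread fitted for all loci of a level, but not that of the single locus.

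For 539307 loci, those where 2 or more libraries of a group exceeded 10 reads, the quasi-likelihood test of edgeR 4.0.16 (R 4.3.3) was run with TMM scaling over the 12 libraries, and p-values were adjusted by Benjamini-Hochberg over these loci. The TMM factor was 1.49 in WC replicate 1 and 0.820 to 1.07 in the other libraries. SEs were derived from the log2 fold change and F. A call needed p below 0.01 and a log2 fold change beyond 1.5. Library-level values of 3 against 3 went through an exact permutation test, two-sided. Coordinates are those of the deposited table, and genes were matched by position to the RefSeq gene table of the same assembly, without strand or exons.

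Alternatives were other scalings, count filters of 5 and 20, DESeq2 1.42.0, the likelihood ratio test, the 6 libraries alone, a replicate block and leaving out each library. The text names the 5 loci with the smallest p each way, the 8 genes each way with the smallest p at a called locus, the 9 genes chosen for qRT-PCR, called genes of the lists, the 5 nuclear loci with the highest count and the 5 loci each way with the smallest p among those with reads in all 6 libraries. Of these the more distinct are described. Other loci, the tRNA and plastid groups among them, were chosen after their values were seen. Members and lists were chosen with earlier results of these data known. The model was tested on simulated data of 30000 loci, 200 of them changed. At a simulated log2 fold change of 2, 13% of the changed loci were called, and at 5, 79.5%. Of the unchanged loci, 0.919% and 0.923% were called. The simulation drew its spread from the fitted model, so it cannot check that spread.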

Additional observations from a re-analysis of the deposited data

Results flagged for a closer look

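At 2 loci the effect of B light differed between plants without and with PUT, by the interaction term of edgeR's quasi-likelihood test adjusted over all loci tested. At 4B:592421107-592422674 the log2 fold change was 1.46 without PUT and 1.89 with it, a difference of -0.43 (adjusted p = 8.44e-07). BC had 8176, 15541 and 8557 reads, WC 6318, 5868 and 4801, BP 6152, 5434 and 26466, and WP 5055, 3956 and 3825, so BP replicate 3 was far above the other BP libraries. At 4A:1-96 the log2 fold change was 2.109 without PUT and 3.73 with it, a difference of -1.62 (adjusted p = 0.0114). Here BC replicate 2 (730 reads) and BP replicates 2 and 3 (978 and 3077) stood above the other libraries of their groups, with 79 to 165 and 83 reads. The spread between the libraries of a locus does not enter these p-values. Of the 322974 members, 14579 had an unadjusted p below 0.05 for this term and 2 passed adjustment. The share of the former is below 0.05, the share that evenly spread p-values would give.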

How the results depend on the processing

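The calls moved widely around 7870 higher and 796 lower. Higher and lower calls were 12880 and 2777 with DESeq2, 2866 and 4339 with the library size over every locus, 23602 and 1458 with a filter at a count above 5, and 623 and 140 at a count above 20. With no filter, 31401 and 1956 of all 11509120 loci were called. With the likelihood ratio test they were 11657 and 3549. Lower calls were 1694 with the library size over the tested loci, and 258 with the 6 libraries alone. Chosen after seeing the data, the 6 libraries alone gave 4606 higher calls with library sizes alone and 518 lower calls without WC replicate 1. An adjusted p below 0.05 left 72 and 1. Leaving out 1 library gave 4315 to 10720 higher and 458 to 1411 lower calls. With the replicate number as a block, 5683 and 409 loci were called. The numbers are not shown to pair the libraries, since same-numbered BC and WC libraries correlated at -0.0314, -0.00579 and 0.0116 in their deviations. The cause of these shifts was not tested.

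Genes with a locus called higher were 196 with at least 0.5 of the locus inside the gene, and 951 higher and 91 lower with 3000 bp added at either end. The ratio of the share called at the ends to that in the interior was 1.23 with the outermost 10%. The BC minus WC share of subgenome B was -0.0389 to 0.180 percentage points when 1 library was left out, with -0.00658, -0.00481 and -0.00937 among these. With only loci that pass the filter, that of D was -1.28, of loci under 500 bp -0.0645 and of tRNA loci 0.0530. The log2 fold change of 1B:551328203-551330186 was 0.0544 with the filter at 20 and 0.0373 with the 6 libraries alone, and -0.297 to 0.22 when 1 library was left out. With the library size over every locus it was -0.73. Of the other values of named loci, 564 kept their direction and side of the threshold, 82 lost the call and 7 gained one. Among those lost, 5B:144109266-144110471, 4A:1-96 and 5A:346441270-346442186 were not called by DESeq2. At a median of 3 to 9 reads a covered locus, single loci with few reads set the limit of depth.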

Other observations

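In a library outside the comparison, WP replicate 2, chromosome 4B held 4.67% of the count, where the other 11 libraries had 5.44% to 5.53%.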
